A study of Mus musculus with 63 samples.

Results

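Apoptotic cells are cleared by phagocytes in a process called efferocytosis, and 10 genes of its recognition step were followed here in mouse peritoneal macrophages. They were taken by symbol from a count table of 56748 genes: Mfge8, Gas6, Pros1, C1qa, C1qb and C1qc encode secreted opsonins, and Mertk, Axl, Stab1 and Itgav encode receptors or receptor subunits. All 10 passed the filter on low counts that left 22147 genes for testing. RNA was sequenced from 63 libraries of macrophages drawn from the peritoneum 72 h after injection of 3% thioglycollate, an irritant that recruits macrophages. All mice also received slow-release Buprenorphine for pain, and the cells were purified by adhesion only. The donors were R1441C knock-in mice, which carry a Parkinson's disease change of the kinase Lrrk2 in the mouse's own gene, or wild-type B6 mice. They were female or male and, per the design text, 2 to 3 months old (young label) or 18 to 21 months old (old label). Adherent cells were kept for 18 h with interferon-gamma at 100 U (IFN-γ label) or with water as the vehicle (untreated label).

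The 16 groups of genotype, sex, age label and treatment label held 2 to 5 libraries each, with 27 libraries labelled young, 36 labelled old, 33 labelled IFN-γ and 30 labelled untreated. Total counts ran from 73.6 to 106.6 M per library. Libraries are numbered here as in the count columns, and in some groups the replicate numbers of the sample titles differ. The labels do not say that replicates came from separate animals, so p-values measure only the spread between these libraries. Of 102 pairs of libraries in the same group, 19 were closer to each other than any pair of libraries from different groups, although none differed by as little as sampling noise. Such pairs linked replicates 1 to 3, and apart from them 4 and 5, in wild-type IFN-γ-label males of both age labels. The same split stood in knock-in old-label IFN-γ-label females, and the labels do not say what it marks. All libraries carried the macrophage markers, with 18649 to 38577 CPM (counts scaled to library size) summed over 8 genes.

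Several libraries stood apart from the rest or from their labels. Summed over 24 IFN-γ response genes, the 36 old-label libraries lay at 24519 to 35369 CPM and the 27 young-label libraries at 650 to 6466 CPM. Within the young label the sum had medians of 1604 CPM untreated and 2470 CPM with the IFN-γ label, and within the old label 28097 and 29565 CPM. The levels of these genes thus followed the age label more than the treatment label. Gbp2, one of them, stood at 883 CPM at most in any young-label library. Within the young label, Gbp2 separated the treatment labels in wild-type but not in knock-in libraries. Wild-type values ran from 235 to 883 CPM (IFN-γ label) and from 13.5 to 195 CPM (untreated). Knock-in values ran from 16.7 to 557 CPM and from 47.0 to 485 CPM, in the same order. The bearing of this on the genotype differences of the IFN-γ label below was not tested. An exchange of the age and treatment labels was not tested. All results below are differences between labels, and age and IFN-γ treatment cannot be told apart in those of either label. In 3 knock-in old-label male libraries titled untreated, another field reads interferon-gamma, and they were kept as untreated. Wild-type IFN-γ-label female libraries old 2 and young 1 had the highest sums of 11 resident peritoneal macrophage genes (3270 and 4662 CPM, against a median of 573 CPM with the IFN-γ label). They also had the most Cd79a, a B cell gene (197 and 311 CPM). Knock-in old-label IFN-γ-label female libraries 4 and 5 had 1.69 and 1.55 CPM of Xist, against a median of 205 CPM in libraries labelled female, while their Ddx3y, a Y-linked gene, was also low (0.624 CPM at most, against 33.9 to 67.9 CPM in libraries labelled male). Smaller mixed signals stood in 4 libraries labelled female, with 4.13 to 8.93 CPM of Ddx3y, among them the wild-type young 1 just named, and in 3 labelled male, with 13.4 to 14.7 CPM of Xist. These libraries were left out 1 at a time and not together. The wild-type pair and the knock-in pair are called the 4 doubted libraries below, and calls of members that change without them are given both ways. All 4 carry the IFN-γ label. Leaving them out also changed the estimates of scaling and spread in strata that held none of them.

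Efferocytosis begins when a phagocyte recognises phosphatidylserine and other signals on a dying cell, either directly or through a soluble bridge. MFG-E8 links phosphatidylserine to integrins that contain the αv subunit. GAS6 links phosphatidylserine to the TAM receptor kinases Tyro3, Axl and Mertk, and protein S links it to Tyro3 and Mertk. C1q opsonises dying cells and also starts the classical complement pathway. Mertk is the TAM receptor best known for apoptotic cell uptake by resting and tolerogenic macrophages, and Axl is known for induction by inflammatory stimuli.

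The age label divided the bridging opsonins in opposite directions. Gas6 and Mfge8 were lower in the old-label libraries, all 3 C1q chains were higher, and Pros1 did not pass the test. Among the receptors Axl and Mertk were higher and Stab1 and Itgav lower. In wild-type libraries 9 of 10 members passed the test, 5 higher and 4 lower, where 62.1% of all genes tested were called (28.4% higher and 33.8% lower). In knock-in libraries it was the same 9 in the same directions, against 60.7% of all genes (28.1% higher and 32.7% lower). With a background this wide the number called is not a result about the members, and the sizes of their changes are given instead. The median change of the members on the log2 scale was 0.15 in wild-type and 0.26 in knock-in libraries, against -0.08 and -0.05 over all genes.

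**Figure D1:**
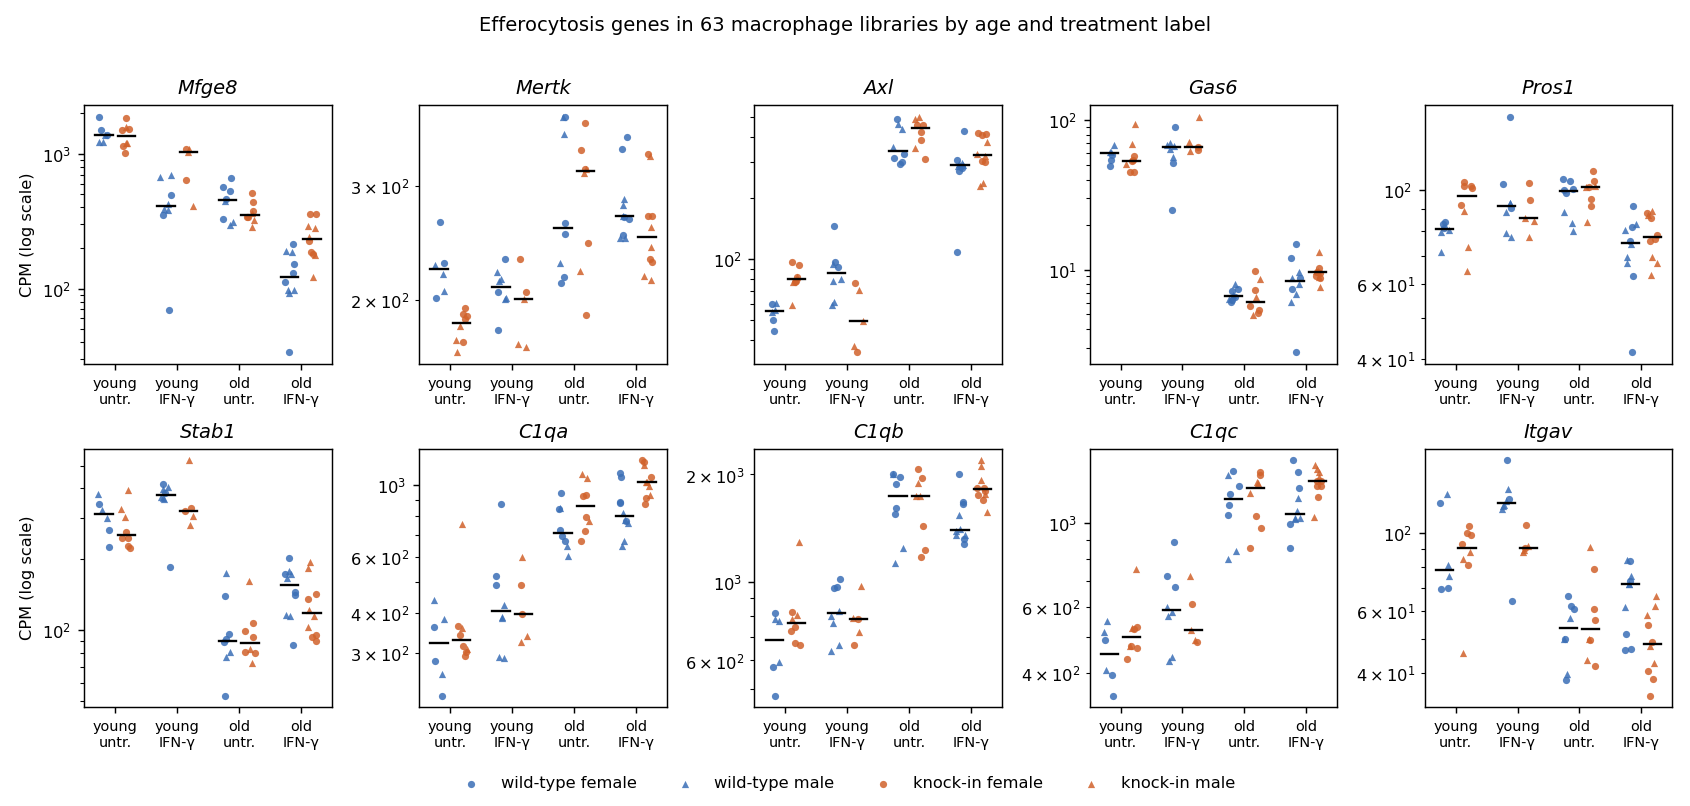
CPM of the 10 genes (vertical axes, log scale) in 63 libraries, split by age and treatment label on the horizontal axis. Each point is a library, circles are female and triangles male, blue is wild-type and orange knock-in, and bars are medians by genotype; the Gas6 points labelled old reach at most 14.8 CPM and those labelled young start at 25.1 CPM.

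Gas6, the vitamin K-dependent ligand of the TAM receptors, changed most. It was at 25.1, 61.7 and 105 CPM (lowest, median and highest) in the 27 young-label libraries and at 2.80, 7.79 and 14.8 CPM in the 36 old-label libraries. The ranges did not overlap, which 6.62% of all genes shared, and Gas6 was the 1 member of which this held. The log2 difference was -2.96 (SE 0.14, edgeR quasi-likelihood test, adjusted p = 5.61e-25) in wild-type and -3.04 (SE 0.14, adjusted p = 4.42e-25) in knock-in libraries, or 7.81-fold and 8.21-fold lower. It was called in 8 of 8 strata of genotype, sex and treatment label, between -3.42 and -2.60. In bulk RNA, fewer cells that express a gene and less RNA per cell cannot be told apart. The summed level of 14 mesothelial and fibroblast genes, cell types that also make Gas6, had a median of 603 CPM in young untreated, 338 in young IFN-γ-label, 276 in old untreated and 243 in old IFN-γ-label libraries. None of these 14 genes was at 0 in all libraries, 5 of them averaged under 1 CPM, and their part in the result was not tested. The Gas6 locus overlaps Tmem255b on the opposite strand, which had a median of 0 CPM.

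Mfge8, the bridge to αv integrins, was lower by a smaller factor and with more spread. The young-label libraries lay at 68.7, 1088 and 1875 CPM (lowest, median and highest) and the old-label libraries at 33.7, 289 and 655 CPM. Both ranges overlapped, through young-label libraries that also had the IFN-γ label. Within the untreated label they did not overlap, with 1008 to 1875 CPM in 14 young-label and 287 to 655 CPM in 16 old-label libraries, as held for 5 of 10 members and for 15.0% of all genes. Mfge8 fell with the old label by a log2 value of -1.67 (SE 0.19, adjusted p = 7.02e-11) in wild-type and -1.87 (SE 0.20, adjusted p = 5.53e-12) in knock-in libraries, and it was called in 8 of 8 strata.

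Pros1 encodes protein S, the second TAM ligand and an anticoagulant, and it was not called with the age label on average over the strata. It was at 64.5, 88.8 and 149 CPM in young-label and 41.5, 85.1 and 111 CPM in old-label libraries, and both ranges overlapped almost wholly. The log2 difference was -0.12 (95% interval -0.25 to 0.02) in wild-type and -0.02 (95% interval -0.16 to 0.12) in knock-in libraries. These means join strata of opposite sign, from -0.69 to 0.34, of which 1 of 8 was called, wild-type IFN-γ-label females (-0.69, edgeR adjusted p = 3.48e-05). Without the doubted libraries that value was -0.24 and not called (adjusted p = 0.101), and Pros1 was called higher in 2 untreated strata, wild-type females (0.34, adjusted p = 0.00368) and knock-in males (0.38, adjusted p = 0.00493). Those 2 strata held no doubted library, so the same libraries were compared in both fits, with scaling and spread estimated anew. The treatment label mattered to this comparison: the change in the IFN-γ label with the old label minus that with the young label was -0.53 (SE 0.10, adjusted p = 0.00386, edgeR). Here 0.497% of all genes were called, and Pros1 was 1 of 10 members. In the untreated label Pros1 had medians of 83.5 CPM (young) and 100.3 CPM (old), and in the IFN-γ label of 90.7 CPM (young) and 76.3 CPM (old). With close libraries joined the value was -0.51 and no longer called (adjusted p = 0.714).

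The 3 C1q chains rose together with the old label. C1qb was at 478, 783 and 1292 CPM in young-label and 1127, 1717 and 2190 CPM in old-label libraries, so the ranges met only at their edges. C1qc was at 349, 522 and 893 CPM in young-label and 803, 1216 and 1463 CPM in old-label libraries. C1qa was at 222, 363 and 875 CPM in young-label and 603, 879 and 1195 CPM in old-label libraries. Of the 972 pairings of an old-label with a young-label library, the old-label library was higher in 99.5% for C1qb, 99.6% for C1qc and 97.3% for C1qa. The young-label libraries that reached the old-label range included knock-in untreated male 2 (1292 CPM of C1qb and 759 CPM of C1qa) and the doubted wild-type IFN-γ-label female 1 (875 CPM of C1qa). The log2 differences in wild-type libraries were 1.00 (SE 0.11) for C1qa, 1.04 (SE 0.09) for C1qb and 1.05 (SE 0.08) for C1qc. In knock-in libraries they were 1.22 (SE 0.11), 1.13 (SE 0.09) and 1.17 (SE 0.09), and each chain was called in 8 of 8 strata.

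The chains assemble into 1 protein of equal parts, and the RNA of C1qc kept a narrower ratio to that of C1qb than C1qa did. On the per-length scale of deposited FPKM values, the C1qc to C1qb ratio ran from 0.329 to 0.495 over 63 libraries with a median of 0.397. The C1qa to C1qb ratio was wider, from 0.373 to 0.900 with a median of 0.531. Both highest ratios were those of the doubted wild-type young-label IFN-γ-label female 1, and the next were 0.460 for C1qc and 0.702 for C1qa. After the mean of each group was subtracted, log2 CPM of C1qb and C1qc had a Pearson r of 0.93 over 63 libraries, C1qa and C1qc 0.81, and C1qa and C1qb 0.73. These are descriptions, and all points share library depth and composition.

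**Figure D2:**
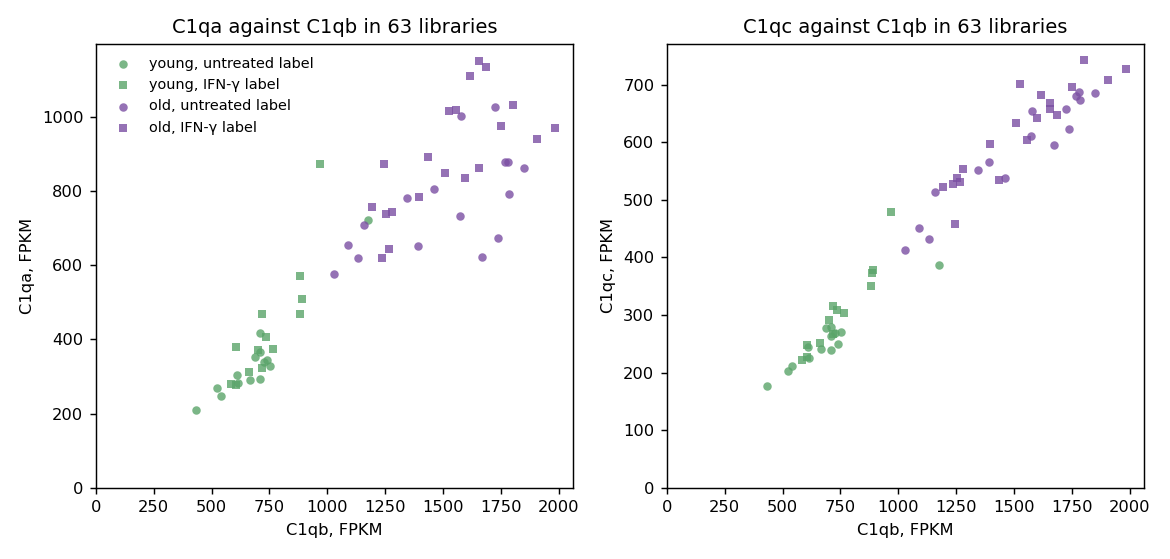
C1qa (left) and C1qc (right) against C1qb, all in FPKM on linear axes, in 63 libraries. Green marks the young label, purple the old label, circles the untreated and squares the IFN-γ label. C1qc keeps to 0.329 to 0.495 of C1qb, and C1qa scatters more widely, from 0.373 to 0.900. Both highest ratios are those of the doubted wild-type young-label IFN-γ-label female 1.

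The start regions of C1qb and C1qc are shown because both were called higher with the old label in 8 of 8 strata. C1qa was too, but no start region was available for it. The 250 bases before each start come from RefSeq on GRCm38.p6, an earlier build than the authors' GRCm39, for chr4:136886201-136886450 (C1qb, minus strand) and chr4:136892915-136893164 (C1qc, minus strand), 5′ to 3′. Capitals mark a match to GAGGAAGT, a core of PU.1 sites, on the minus strand of the printed sequence.
C1qb: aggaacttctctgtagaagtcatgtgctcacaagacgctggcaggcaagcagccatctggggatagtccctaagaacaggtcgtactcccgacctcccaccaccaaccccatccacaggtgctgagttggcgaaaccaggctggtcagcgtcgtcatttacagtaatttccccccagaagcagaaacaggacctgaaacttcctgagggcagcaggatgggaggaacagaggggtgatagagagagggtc
C1qc: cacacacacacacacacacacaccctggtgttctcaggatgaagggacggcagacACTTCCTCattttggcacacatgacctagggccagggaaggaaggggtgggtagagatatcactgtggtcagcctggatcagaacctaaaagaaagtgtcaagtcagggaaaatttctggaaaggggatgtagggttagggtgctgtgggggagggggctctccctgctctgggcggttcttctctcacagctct
C1qc held the match, at 195 bases before its start, and C1qb held none. Of 32851 promoters of 300 bases (250 before to 50 after the start), 3.20% held these letters on either strand.

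Axl, a TAM receptor kinase that binds GAS6, rose most among the members. It was at 34.8, 76.5 and 146 CPM in young-label and 109, 324 and 502 CPM in old-label libraries. The old-label library was higher in 99.9% of pairings, and the ranges overlapped through 1 old-label library, the doubted wild-type IFN-γ-label female 2 at 109 CPM. The log2 difference was 2.23 (SE 0.13, adjusted p = 1.05e-21) in wild-type and 2.53 (SE 0.14, adjusted p = 2.26e-22) in knock-in libraries, or 4.68-fold and 5.77-fold higher. It was called in 8 of 8 strata, between 1.33 and 2.87. Its ligand Gas6 fell in the same comparison.

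Mertk, the other TAM receptor among the members, differed less. It was at 166, 202 and 264 CPM in young-label and 189, 268 and 384 CPM in old-label libraries, with wide overlap. Its log2 difference was 0.41 (SE 0.08, adjusted p = 2.59e-05) in wild-type and 0.54 (SE 0.09, adjusted p = 4.82e-07) in knock-in libraries. It was called in 5 of 8 strata, from 0.20 to 0.71, and in 6 of 8 without the doubted libraries. There wild-type IFN-γ-label females were no longer called (0.44, adjusted p = 0.0824), and knock-in IFN-γ-label females (0.51, adjusted p = 0.0408) and wild-type IFN-γ-label males (0.41, adjusted p = 0.0183) were. The stratum of these males held no doubted library, so the same libraries were compared in both fits. In this stratum Mertk was also called by edgeR with same-numbered libraries as a block (0.35, adjusted p = 0.0313, against 0.34 and adjusted p = 0.0531 without it). All 5 same-numbered pairs there deviated together, but so did some differently numbered ones (r = 0.52 for old 2 with young 3, and 0.67 for old 5 with young 4). The numbers were therefore not shown to pair the libraries.

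Stab1 encodes stabilin-1, a scavenger receptor that binds phosphatidylserine directly. It was at 185, 323 and 526 CPM in young-label and 52.8, 111 and 203 CPM in old-label libraries, and the old-label library was higher in 0.206% of pairings. The log2 difference was -1.41 (SE 0.13, adjusted p = 1.84e-13) in wild-type and -1.50 (SE 0.14, adjusted p = 5.69e-14) in knock-in libraries, called in 8 of 8 strata. Its locus overlaps Nt5dc2 on the opposite strand (median 11.9 CPM), and the strand setting of the counting is not given in the sources used here. Itgav, the αv integrin subunit that receives MFG-E8, was at 45.6, 93.1 and 161 CPM in young-label and 34.5, 55.8 and 91.5 CPM in old-label libraries. Its log2 difference was -0.83 (SE 0.12, adjusted p = 2.03e-08) in wild-type and -0.71 (SE 0.12, adjusted p = 1.3e-06) in knock-in libraries, called in 7 of 8 strata. The RNA of the bridge Mfge8 and of this receptor subunit was thus lower with the old label.

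**Figure D3:**
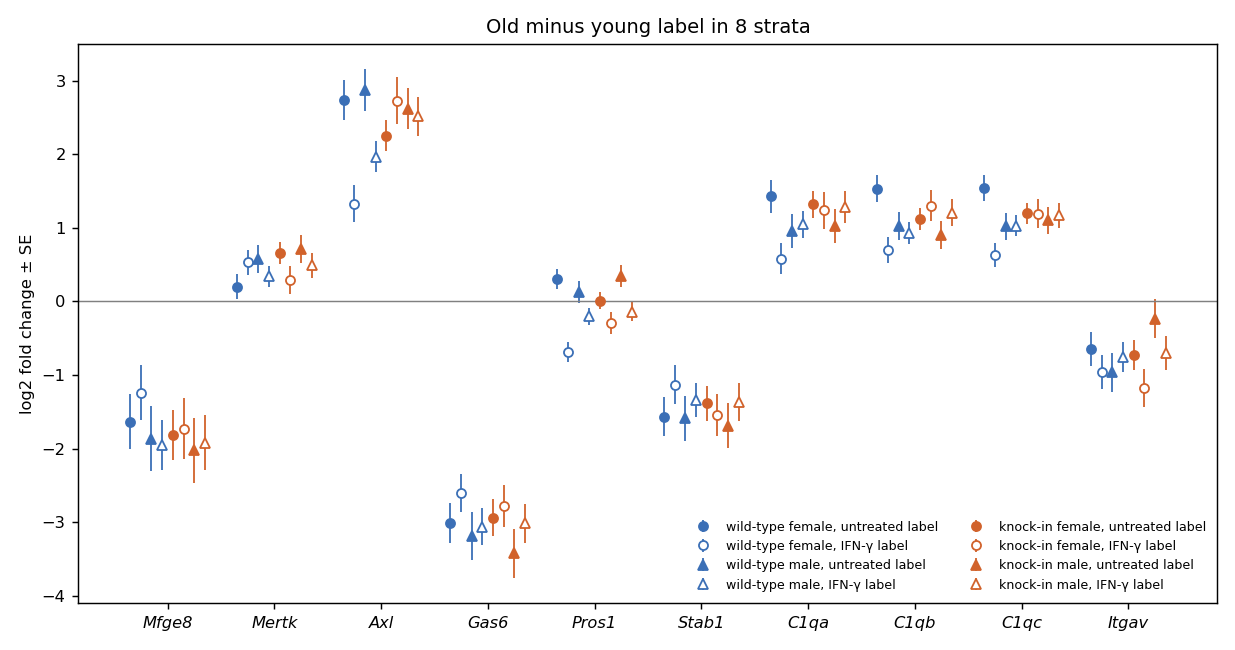
Old minus young label for each gene, as log2 fold change ± SE (vertical axis), in 8 strata of genotype, sex and treatment label. Filled symbols are untreated and open symbols IFN-γ label, circles female and triangles male, blue wild-type and orange knock-in; all 8 Gas6 values lie between -3.42 and -2.60 and all 8 Axl values between 1.33 and 2.87.

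Over the 8 strata, 37 member tests were called higher and 32 lower of 80, against 40.0% of all gene tests. The difference in the age label between genotypes was called for 0 of 10 members and 0.0% of all genes by edgeR, while 621 genes had an unadjusted p under 0.05. The intervals of that difference for the members reached from -0.74 to 0.34 for Mfge8 and from -0.03 to 0.64 for Axl. The dendritic cell list (6 genes, of which 3 averaged under 1 CPM) summed to 59.7 to 211 CPM in old-label and 3.22 to 43.8 CPM in young-label libraries. Its part in these results was not tested. Leaving out the 4 doubted libraries kept 9 calls in each genotype.

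The start regions of Axl and Gas6 are shown as those of the receptor and ligand with the widest opposite changes, and that of Pros1 as the ligand that was not called. All come from RefSeq on GRCm38.p6, 5′ to 3′, at chr7:25788734-25788983 (Axl, minus strand), chr8:13494536-13494785 (Gas6, minus strand) and chr16:62854057-62854306 (Pros1, plus strand). Capitals mark a match to TTCNNNGAA, the IFN-γ activated sequence (GAS).
Axl: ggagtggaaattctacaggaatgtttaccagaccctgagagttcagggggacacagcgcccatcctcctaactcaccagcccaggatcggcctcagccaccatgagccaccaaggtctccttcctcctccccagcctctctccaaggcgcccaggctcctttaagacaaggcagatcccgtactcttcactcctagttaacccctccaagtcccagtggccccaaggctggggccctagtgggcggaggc
Gas6: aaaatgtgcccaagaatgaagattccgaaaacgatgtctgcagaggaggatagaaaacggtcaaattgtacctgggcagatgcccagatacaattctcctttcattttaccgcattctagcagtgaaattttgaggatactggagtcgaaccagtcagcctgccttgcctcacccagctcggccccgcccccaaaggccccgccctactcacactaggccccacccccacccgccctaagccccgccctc
Pros1: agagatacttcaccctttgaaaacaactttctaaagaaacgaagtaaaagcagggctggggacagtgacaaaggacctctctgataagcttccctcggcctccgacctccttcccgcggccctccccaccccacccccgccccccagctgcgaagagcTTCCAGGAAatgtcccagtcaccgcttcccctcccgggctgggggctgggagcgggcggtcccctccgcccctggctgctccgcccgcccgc
Pros1 held the match, TTCCAGGAA, at 92 bases before its start, and 8.30% of all promoters held one. Searches covered 4 motifs on both strands in the 9 members with an entry: GAS, the interferon-stimulated response element (GAAA repeated after a gap of 2 bases, in 3.44% of promoters), the LXR element (AGGTCA repeated after a gap of 4 bases, in 0.0152%) and the PU.1 core. Beside Pros1 and C1qc, Itgav held a PU.1 core at 9 bases before its start, and no letters of these motifs were found in Mfge8, Mertk, Axl, Gas6, Stab1 and C1qb. C1qa has no entry.

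The order of the members changed with the age label on the per-length scale. In young-label libraries the median FPKM fell from C1qb (709) through C1qa (344), C1qc (267), Mfge8 (230), Mertk (46.0), Stab1 (30.9), Gas6 (24.0), Pros1 (21.6) and Axl (15.1) to Itgav (8.72). In old-label libraries the order was C1qb (1565), C1qa (841), C1qc (617), Axl (63.3), Mertk (61.3), Mfge8 (60.5), Pros1 (20.5), Stab1 (10.8), Itgav (5.12) and Gas6 (2.99). The C1q chains led in both. Axl went from the ninth to the fourth place and Gas6 from the seventh to the last, and Axl, Mertk and Mfge8 overlapped in range with the old label (22.3 to 98.5, 42.4 to 87.8 and 7.37 to 138 FPKM).

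The IFN-γ label came with less Mfge8, while the log2 values of the other members lay between -0.46 and 0.39. In wild-type libraries 5 of 10 members were called, 4 higher and 1 lower, against 31.3% of all genes (15.4% higher and 15.9% lower). In knock-in libraries 2 of 10 were called, both lower, against 7.77% of all genes (3.35% higher and 4.42% lower). Without the doubted libraries Gas6 was also called higher, by 0.33 in wild-type (adjusted p = 0.0156, against 0.17 and adjusted p = 0.351 with all libraries) and by 0.36 in knock-in (adjusted p = 0.0132, against 0.39 and adjusted p = 0.0743). Pros1 was then called lower in knock-in libraries, by a log2 value of -0.17 (adjusted p = 0.0215, against -0.14 and adjusted p = 0.245). No member's IFN-γ-label libraries all lay on one side of the untreated ones, which 0.00452% of genes did.

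In wild-type young-label libraries Mfge8 was at 1226, 1381 and 1875 CPM (lowest, median and highest of 6) untreated and at 68.7, 407 and 699 CPM (of 8) with the IFN-γ label. With the old label, wild-type libraries were at 295, 456 and 655 CPM (of 8) untreated and at 33.7, 122 and 214 CPM (of 10) with the IFN-γ label. Neither pair of ranges overlapped, which held for no other member in either pair, and for 2.42% (young label) and 1.35% (old label) of all genes. The log2 difference in wild-type was -1.77 (SE 0.19, adjusted p = 6.97e-10), or 3.42-fold lower, and it was -1.58 (adjusted p = 4.28e-11) without the doubted libraries, of which 2 held the lowest Mfge8 levels of all (33.7 and 68.7 CPM). The sums of resident macrophage, T and NK cell, mast cell and B cell genes reached their highest values in IFN-γ-label libraries (4662, 30.4, 127 and 2304 CPM, against 1332, 9.73, 13.3 and 496 CPM at most untreated). These are single highest libraries, and the 4662 CPM was that of the doubted wild-type young-label female 1. Of the 14 T and NK cell genes, 12 averaged under 1 CPM. The part of other cells in the Mfge8 result beyond the doubted libraries was not tested.

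In knock-in young-label libraries Mfge8 was at 1008, 1347 and 1833 CPM (of 8) untreated and at 407, 643, 1031, 1081 and 1088 CPM with the IFN-γ label. In knock-in old-label libraries it was at 287, 352 and 513 CPM (of 8) untreated and at 122, 233 and 356 CPM (of 10) with the IFN-γ label. Here both pairs of ranges overlapped. The log2 difference was -0.63 (SE 0.20, adjusted p = 0.0391), and leaving out any 1 of 16 knock-in libraries ended the call (adjusted p 0.0501 to 0.162). Mfge8 was lower with the IFN-γ label in 8 of 8 strata and was called in 3 of them, all wild-type: young females (-2.38), old females (-1.98) and old males (-1.41). Young wild-type males were at -1.32 (adjusted p = 0.0958), and called without the doubted libraries (-1.33, adjusted p = 0.00489), none of which was in this stratum. Over the members and strata 6 tests were called higher and 4 lower of 80, against 8.59% of all gene tests, and without the doubted libraries 4 higher and 7 lower.

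**Figure D4:**
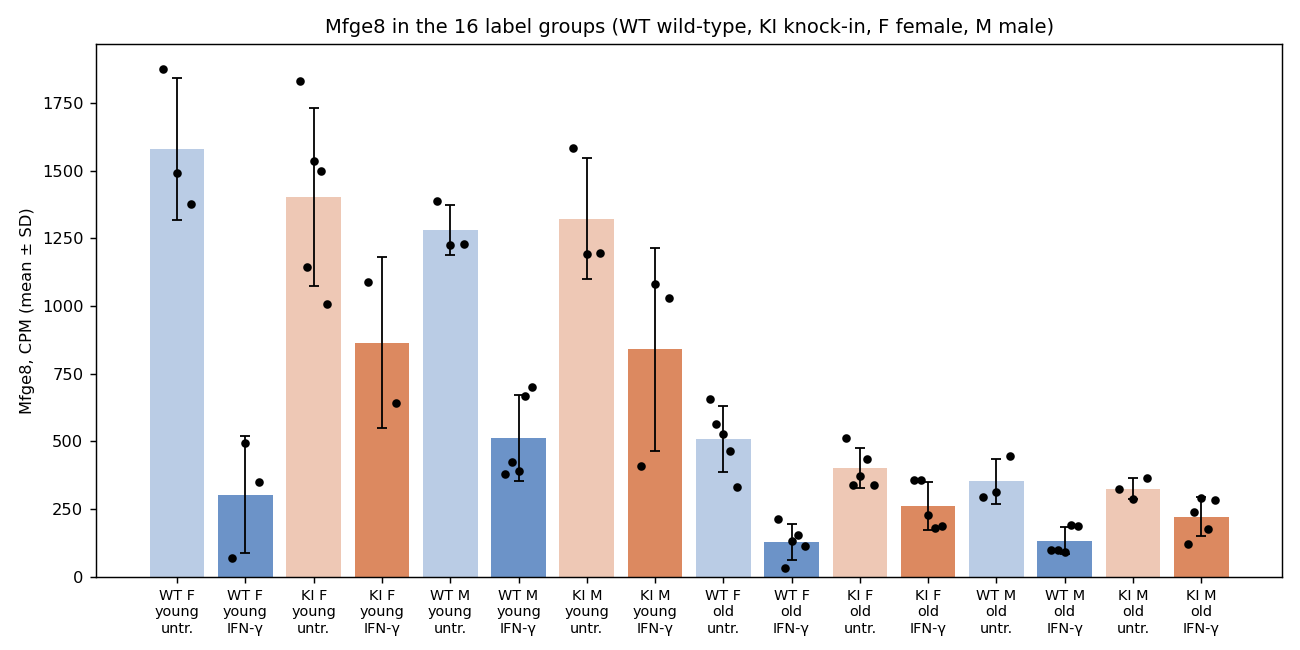
Mfge8 in CPM (vertical axis, from 0) in the 16 label groups, with bars for the mean, error bars for the SD and a point for each library. Blue is wild-type and orange knock-in, pale untreated and dark IFN-γ label; the young-label IFN-γ-label bars stand at 304 and 512 CPM in wild-type and at 865 and 840 CPM in knock-in females and males.

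Of the receptors and C1q chains in wild-type libraries, the IFN-γ label was higher by 0.38 (SE 0.13, adjusted p = 0.0243) for Stab1, 0.37 (SE 0.12, adjusted p = 0.0135) for Itgav, 0.36 (SE 0.10, adjusted p = 0.00576) for C1qa and 0.27 (SE 0.08, adjusted p = 0.00928) for C1qc. These means join unequal strata. C1qa and C1qc were each called in 1 of 8 strata, young wild-type females, by 1.12 (adjusted p = 0.000403) and 0.89 (adjusted p = 0.000314), while in young wild-type males they differed by -0.02 and 0.09. C1qa was at 222, 284 and 363 CPM in the 3 untreated and at 488, 523 and 875 CPM in the 3 IFN-γ-label libraries of these females, with the doubted library the highest. Without the doubted libraries both remained called there, while C1qb, also called there (0.65, adjusted p = 0.0121), was not (0.61, adjusted p = 0.0712). Stab1 was called in old wild-type females alone (0.67, adjusted p = 0.0334), and not without the doubted library (0.64, adjusted p = 0.0618), and Itgav in no stratum. Pros1 was called higher in young (0.47, adjusted p = 0.0261) and lower in old wild-type females (-0.53, adjusted p = 0.00102), and the former was not called without the doubted libraries (0.23, adjusted p = 0.33). Without those libraries old knock-in females were called for Pros1 (-0.39, adjusted p = 0.00589), as were old wild-type females for Gas6 (0.71, adjusted p = 0.0082). With close libraries joined the means of Stab1, Itgav, C1qa and C1qc were not called, and Stab1 was also lost on leaving out wild-type untreated young female 1, old male 1 or old male 2 (adjusted p 0.0517 to 0.0639). In knock-in libraries Axl was lower by a log2 value of -0.46 (SE 0.12, adjusted p = 0.0127). Knock-in young-label IFN-γ-label female 1 had 34.8 CPM of Axl against 76.5 CPM in the other library of its group. Without it, with that other library alone in its group and assumed to vary like those of other groups, the value was -0.32 and not called (adjusted p = 0.162).

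The knock-in change minus the wild-type change with the IFN-γ label was called for 2 of 10 members, 1 higher and 1 lower, against 11.9% of all genes (6.36% higher and 5.58% lower). It was 1.14 for Mfge8 (SE 0.27, 95% interval 0.61 to 1.68, adjusted p = 0.00589): the fall with the IFN-γ label was smaller in knock-in libraries. For Axl it was -0.62 (SE 0.17, adjusted p = 0.0144), with a value of 0.16 in wild-type (not called) and -0.46 in knock-in libraries. The wild-type mean joins opposite directions, 1.10 in young females (adjusted p = 0.00222), 0.38 in young males, -0.30 in old females and -0.52 in old males, of which the first was called. Axl went from 51.7 ± 8.05 CPM to 111 ± 30.1 CPM (SD, 3 libraries each) in the young wild-type females. The 4 knock-in strata lay between -0.62 and -0.14, and none was called with all libraries, while young females were without the doubted libraries (-0.67, adjusted p = 0.0312). The stratum of these young females held no doubted library. For both genes the knock-in mean included old-label males, whose untreated libraries read interferon-gamma in another field. Their part in the Mfge8 and Axl differences was not tested. Without the doubted libraries both were called (1.00, adjusted p = 0.00269, and -0.75, adjusted p = 0.00215). With close libraries joined neither was (1.02, adjusted p = 0.216, and -0.57, adjusted p = 0.245), and without knock-in young-label IFN-γ-label female 1 the Axl value was -0.50 (adjusted p = 0.0606). Stab1, C1qa and C1qc, called in wild-type libraries alone, were not shown to differ between genotypes (adjusted p 0.875, 0.448 and 0.342). The Itgav difference was -0.43 and not called (adjusted p = 0.0897). It was called without the doubted libraries (-0.59, adjusted p = 0.0126), by DESeq2 (-0.45, adjusted p = 0.0467), and on leaving out knock-in young untreated male 2, wild-type young IFN-γ-label female 1, wild-type young untreated female 4 or wild-type young untreated male 5 (adjusted p 0.0372 to 0.0399).

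**Figure D5:**
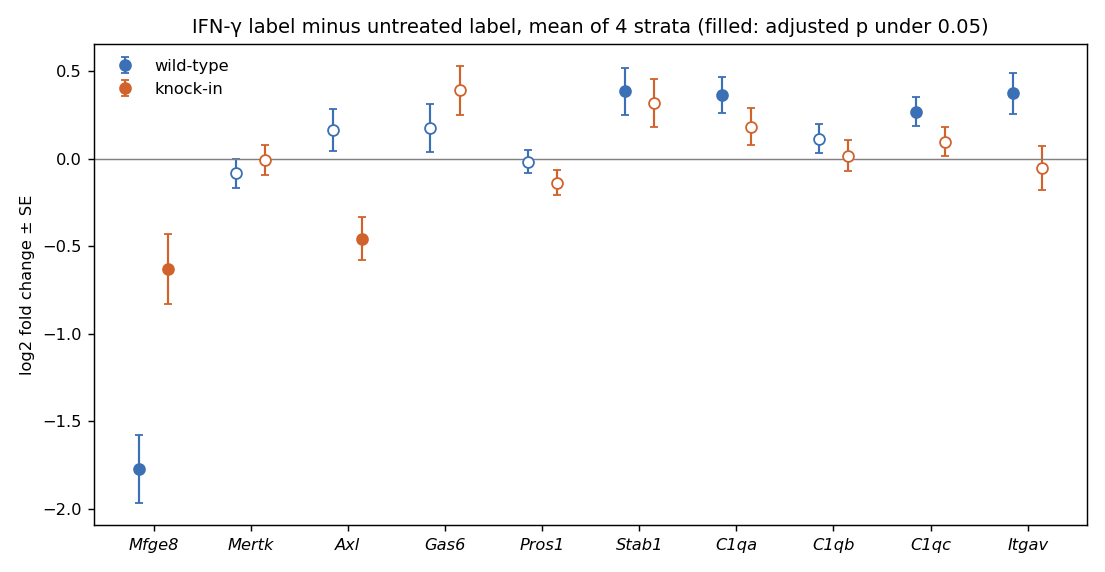
IFN-γ label minus untreated label as log2 fold change ± SE (vertical axis) for each gene, averaged over 4 strata of sex and age label, wild-type in blue and knock-in in orange. Filled points passed an adjusted p of 0.05; Mfge8 stands at -1.77 in wild-type and -0.63 in knock-in libraries and Axl at 0.16 and -0.46.

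Compared directly within each of 8 strata, knock-in and wild-type libraries were called different in 2 of 80 member tests, against 2.48% of all gene tests. The count is near that share and is not a result about the members. Both calls were in young-label IFN-γ-label females, where 6.74% of genes were called. Mfge8 was at 68.7, 349 and 493 CPM in 3 wild-type and 643 and 1088 CPM in 2 knock-in libraries, a log2 difference of 1.51 (SE 0.47, adjusted p = 0.0402). Axl was at 91.3, 96.4 and 146 CPM in the wild-type and 34.8 and 76.5 CPM in the knock-in libraries, which put the knock-in level at 0.501 of the wild-type level (log2 SE 0.30, adjusted p = 0.0365). Neither gene overlapped between the genotypes there, nor did the 3 C1q chains, which 33.9% of all genes shared with so few libraries. Without the doubted libraries Mfge8 was no longer called (1.02, adjusted p = 0.116), and Axl was (-1.11, adjusted p = 0.018). Leaving out 1 library, the Mfge8 call ended without wild-type 1 (1.04) or knock-in 1 (1.10), and also without knock-in 2, where the value rose (1.83, adjusted p = 0.0751). The Axl call ended without wild-type 5 (-0.75) or knock-in 1 (-0.53), and also without wild-type 1, where it was larger (-1.08, adjusted p = 0.0582). With a knock-in library left out, the other is alone in its group and is assumed to vary like the libraries of the other groups. In the other IFN-γ-label strata Mfge8 differed by 1.02 in old-label females (adjusted p = 0.056), 0.71 in young-label males (adjusted p = 0.544) and 0.74 in old-label males (adjusted p = 0.151). In the 4 untreated strata it ranged from -0.34 to 0.05. No C1q chain, TAM ligand, Mertk, Stab1 or Itgav was called in any stratum, with log2 values from -0.51 to 0.48.

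Between the sexes, averaged over the other labels, 1 of 10 members was called, against 13.6% of all genes. Pros1 was at 41.5, 94.9 and 149 CPM in libraries labelled female and 63.1, 80.6 and 102 CPM in those labelled male, with full overlap. The log2 difference, female minus male, was 0.19 (SE 0.05, adjusted p = 0.00581), and with close libraries joined it was 0.21 and not called (adjusted p = 0.126).

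Around these members stood a list of 63 other genes of apoptotic cell recognition, uptake and degradation, of which 62 could be tested. With the old label 19 rose and 30 fell in wild-type libraries, where 28.4% of all genes were called higher and 33.8% lower, with a median log2 change of -0.12 against -0.08 over all genes. In knock-in libraries 22 rose and 30 fell, against 28.1% and 32.7% of all genes, with a median of -0.22 against -0.05. The risers by smallest p in wild-type were C1ra (3.46) and C1s1 (3.01), which encode the proteases that C1q carries, calreticulin Calr (1.10), and Gpr132 (1.95), a receptor for lysophospholipid signals of dying cells. C1ra was at 15.2 ± 4.88 CPM in 14 young untreated and 206 ± 36.3 CPM in 16 old untreated libraries (SD), so C1q and its proteases rose together. Those that fell by smallest p were Cd300lb (-1.42), a phosphatidylserine receptor, Itgb3 (-2.38), the β3 partner of αv, the transcription factor gene Maf (-1.40) and Stab2 (-2.52), the paralog of Stab1. Itgb3 went from 17.8 ± 4.53 CPM to 2.64 ± 0.627 CPM in the same libraries. Among the smallest p in knock-in libraries were also Adgrb1 (3.96, and 3.28 in wild-type), at under 1 CPM in every library, and Anxa1 (-1.39, and -1.24 in wild-type), and all 4 values were called.

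With the IFN-γ label 10 of the 62 rose and 16 fell in wild-type libraries, against 15.4% and 15.9% of all genes, with S1pr1 (1.43), C1ra (0.77), Havcr1 (2.61, at under 1 CPM on average) and Thbs1 (1.22) the risers of smallest p and Anxa1 (-0.64), Itgb3 (-0.65), Lgals3 (-0.55) and Cd300lb (-0.26) those that fell. Among wild-type IFN-γ-label libraries S1pr1, Havcr1 and Thbs1 were highest in the doubted one of each age label, with S1pr1 at 218 CPM in the young-label one against 66.5 CPM at most in the other 7, Havcr1 at 1.48 against 0.274 CPM and Thbs1 at 3991 against 997 CPM. With both left out, along with the doubted knock-in pair, these 3 were called at 0.96, 2.00 and 0.75, and 12 of the list rose and 14 fell. In knock-in libraries 0 rose and 3 fell, against 3.35% and 4.42% of all genes, and without the doubted libraries 1 rose and 5 fell. The 3 were Tyro3 (-1.05), the third TAM receptor, Gulp1 (-1.20), an engulfment adaptor, and Megf10, all at under 1 CPM on average. The genotype difference of the IFN-γ label was called higher for 4, among them Cd300lf (0.44) and Anxa1 (0.53), and lower for 6, among them C1ra (-0.71) and C3 (-0.98), against 6.36% and 5.58% of all genes. C3 was not called without the doubted libraries (-0.61, adjusted p = 0.117). Between the sexes 5 were higher in females, including Colec12 (0.81), Timd4 (1.26) and C4b (0.76), and 7 were lower, including Rxra (-0.20), against 13.6% of all genes in either direction. Timd4, a gene of resident peritoneal macrophages, was at 410 CPM in the doubted wild-type old-label library against 20.0 to 72.4 CPM in the other 4 of its group, and at 67.4 CPM in the doubted young-label one against 4.26 and 4.80 CPM. Without the doubted libraries its sex difference was 0.85 (adjusted p = 0.0123) and that of C4b 0.51 (adjusted p = 0.0106).

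The genes outside the members whose levels within groups were most like each member were ranked over 63 libraries among 11115 genes. They were Tnfaip3 (r = 0.94), Tbk1 (0.90) and Src (0.89) for Mertk, Wipf1 (0.95), Pdlim5 (0.95) and Agps (0.95) for Itgav, and Cd200 (0.90), Map6 (0.89) and Ttyh2 (0.87) for Mfge8. For Axl they were Ralgds (0.86), Lap3 (0.82) and Htra4 (0.82), for Gas6 Kif3a (0.83), Cbr2 (0.83) and Mfsd11 (0.82), and for Stab1 Siglec1 (0.82), Plxnb2 (0.80) and Sfxn3 (0.80). Pros1 had lower values, with Fam3c (0.74), Eepd1 (0.71) and Aqp9 (0.70). Outside the members, C1qb was closest to Unc93b1 (0.85), Fcgrt (0.85) and Ptpa (0.84), C1qc to Fcgrt (0.80), Khk (0.78) and Unc93b1 (0.77), and C1qa to Tmem221 (0.79), Padi4 (0.76) and Smagp (0.75). Among the members Stab1 and Itgav had an r of 0.62, Gas6 and Mfge8 0.47, and Mertk and C1qb -0.58. All points share library depth and composition, and the correlations are descriptions. The doubted libraries and the close pairs were kept in them, and their part was not tested.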

How the data were processed

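RNA of 63 libraries was sequenced with a directional paired-end kit, per the labels. The authors deposited whole-number counts per gene, which were tested, and FPKM values, used only to compare levels between genes and C1q chains. Per the submitters' processing notes, the tools were STAR 2.7.9a and DESeq2 1.40.2 and the build GRCm39. Which counter, annotation and strand setting made the counts is not given in the sources used here. Symbols were matched through a GRCm38 annotation (52073 of 56748 identifiers). Genes were filtered with filterByExpr, scaled with TMM factors (0.886 to 1.233) and fitted with edgeR 4.0.16 in R 4.3.3, 1 coefficient per group. All adjusted p-values are Benjamini-Hochberg values of its quasi-likelihood test over 22147 genes within a contrast, called at 0.05. Label effects are means over 4 strata within a genotype. CPM values are TMM-scaled. The fit was tested on simulated data. Alternatives were RLE factors, no filter, replicate blocks, DESeq2 1.42.0, leaving out libraries, and, added after the data were seen, summing close libraries of a group into 1 (44 remain) and strata refitted without the doubted libraries or with pair blocks. All members were named and, of the other list, up to 4 genes a direction by smallest p. Likeness used log2(CPM + 0.5) for genes with a proper symbol and a mean of at least 1 CPM. Members, lists, doubted libraries and tests were chosen with earlier results of these data known.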

Additional observations from a re-analysis of the deposited data

Results flagged for a closer look

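The 10 members were examined in each group of at least 4 libraries, 80 sets in all, and in 4 of them 1 library stood far from the others, where chance gives about 1 in 20. Axl was at 488 CPM in wild-type old-label untreated female 1 and at 293 to 328 CPM in the other 4. Pros1 was at 92.3 CPM in knock-in young-label untreated female 1 and at 101 to 104 CPM in the other 4. C1qb was at 1535 CPM in wild-type old-label IFN-γ-label male 2, with 1348 to 1402 CPM in the other 4. C1qc was at 1037 CPM in knock-in old-label IFN-γ-label male 2, with 1319 to 1424 CPM in the other 4.

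Effects under the same label differed between groups for 3 members, by a test of the difference in edgeR. The log2 change with the IFN-γ label was 1.14 higher for Mfge8 in knock-in than in wild-type libraries (adjusted p = 0.00589), a smaller fall. For Axl the knock-in minus the wild-type change was -0.62 (adjusted p = 0.0144). In both, the knock-in change included old-label males whose untreated libraries read interferon-gamma in another field. For Pros1 the old-label minus the young-label change was -0.53 (adjusted p = 0.00386).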

How the results depend on the processing

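The 9 calls of the age label in each genotype held on leaving out each of 63 libraries in turn (9 to 9) and under the other settings (9 to 10 in wild-type, 9 in knock-in). The treatment label, sex and genotype results depended on the libraries, and the cause was not tested beyond the loss of libraries.

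With close libraries joined (44 libraries), the calls were 1 for the IFN-γ label in wild-type (Mfge8, -1.74), 0 in knock-in, 0 for its difference between genotypes, 0 for its difference between age labels, 0 for sex and 0 for the genotype strata. Calls of the IFN-γ label in knock-in libraries numbered 1 with no filter, 1 with a block on the replicate number, 1 with a replicate block of pairs and 4 without the doubted libraries. Genotype strata calls numbered 1 with the replicate number as a block, 1 without the doubted libraries and 4 by DESeq2.

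Leaving out 1 library gave 4 to 5 calls for the IFN-γ label in wild-type, 0 to 3 in knock-in, 1 to 3 for its difference between genotypes, 0 to 4 in the genotype strata and 1 to 2 for sex. In knock-in libraries the Mfge8 call was lost without young IFN-γ-label female 1 or 2 or male 2, young untreated female 1 or 3 or male 2 or 4, old IFN-γ-label female 3, 4 or 5 or male 1 or 4, or old untreated female 1 or 4 or male 2 or 5. The genotype strata calls rose to 4 without knock-in old untreated female 1, young IFN-γ-label male 2 or young untreated male 2, or wild-type IFN-γ-label old female 4 or young female 2. For sex they rose to 2 without wild-type young IFN-γ-label female 5.

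Values near 0 changed sign. Pros1 with the age label was 0.031 without the doubted libraries in wild-type, and in knock-in 0.0087 with no filter and 0.011 without the doubted libraries (-0.047 to 0.030 leaving out 1 library). For the IFN-γ label, wild-type Pros1 was 0.0108 with RLE factors, 0.024 with close libraries joined, 0.0123 with blocked pairs and 0.0108 by DESeq2 (-0.064 to 0.045 leaving out 1), and wild-type Gas6 was -0.013 with blocked pairs. In knock-in, Mertk was 0.0069 with no filter, 0.0113 without the doubted libraries and 0.032 with close libraries joined (-0.052 to 0.040), C1qb was -0.019 with blocked pairs (-0.017 to 0.083), and Itgav was 0.0032 with a replicate number block and 0.0088 with blocked pairs (-0.116 to 0.041). The genotype difference of the age label for Mfge8 was 0.021 with blocked pairs, and that of the IFN-γ label for Stab1 ran from -0.188 to 0.0128 leaving out 1. Within strata, without the doubted libraries, the IFN-γ-label value of C1qc in old wild-type females was 0.108 and that of Itgav in young knock-in females -0.0088.

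The labels do not say what a replicate number marks, and the numbers were not taken to pair the libraries over all strata. Of 26 same-numbered pairs that differ in treatment label, 14 had correlated deviations over 0.1 (-0.42 to 0.73, median 0.120, against -0.051 for differently numbered pairs), and of 26 that differ in age label 18 (-0.72 to 0.68, median 0.235, against -0.041). Every pair was over 0.1 in 4 strata with 3 or more pairs: the treatment label in old knock-in females (5 pairs) and the age label in wild-type IFN-γ-label males (5), knock-in IFN-γ-label males (3) and wild-type untreated females (3). There the pair as a block, added after the data were seen, changed 1 member call, that of Mertk in wild-type IFN-γ-label males. In that stratum some differently numbered libraries were as alike, with 0.67 for old 5 and young 4 against 0.49 for old 5 and young 5. Over the wild-type strata, pairs by age label added a call of Pros1 (-0.18, adjusted p = 0.00852). The lowest level of any member in a library was 2.80 CPM, for Gas6, among totals of at least 73.6 M counts.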
